A study of Mus musculus with 16 samples.

Results

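The interaction asks whether the gene expression difference that SHU9119 makes in mouse gonadal fat is the same with and without the subdiaphragmatic vagus nerve. It was taken as the SHU9119 difference after vagotomy (VX_SHU minus VX_Veh) minus the SHU9119 difference after sham surgery (Sham_SHU minus Sham_Veh). All 16 of the 16 libraries and all 24454 genes of the deposited count table belong to it, and 16682 genes passed the filter on low counts and were tested. A negative interaction on the log2 scale means that SHU9119 shifted the gene further up, or less far down, after sham surgery than after vagotomy, and a positive one means the opposite.

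The mice were lean C57BL/6J males, 16 weeks old, on chow. Each had either sham surgery or subdiaphragmatic vagotomy (sDVX), the cutting of vagal branches below the diaphragm. Beginning 4 weeks later, osmotic minipumps delivered vehicle or SHU9119 (1 nmol/day) into the cerebral ventricles for 2 weeks, and intake was held isocaloric between mice over that time. The groups Sham_Veh, Sham_SHU, VX_Veh and VX_SHU hold 4 libraries each. Every group was operated on and carried a pump, so no group is unoperated. Nothing in the labels ties a library to a single mouse, and the p-values therefore describe only how far these libraries spread, which may be technical.

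SHU9119 is a synthetic peptide that blocks the melanocortin receptors MC3R and MC4R, through which the brain restrains food intake and raises energy expenditure. Visceral fat is supplied by sympathetic nerves, and the vagus links the abdominal organs and the brain in both directions. In fat cells, glucose is turned into fatty acids by the enzymes of de novo lipogenesis, whose genes respond to insulin, and cholesterol synthesis genes respond to low sterol through the transcription factors of the SREBP family.

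No gene passed for the interaction: 0 of 16682 (0%) had an adjusted p under 0.05 in the edgeR quasi-likelihood test with Benjamini-Hochberg adjustment, and the smallest adjusted p was 0.612. At an unadjusted p under 0.05 there were 794 genes (4.76%), beside 834 that this threshold gives when nothing differs. Of these, 239 (1.43%) were negative and 555 (3.33%) were positive. That split depended on the setting: limma-voom with sample weights had 1706 negative and 1574 positive, and edgeR without 6 libraries high in epididymis or testis markers had 626 and 557. Other tools called a few genes. The DESeq2 Wald test called 8 genes (0.0493% of those with an adjusted p; 978 at an unadjusted p under 0.05), and limma-voom with sample weights called 13 (0.0779%; 3280 unadjusted), with 5 genes called by both.

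The interaction combines the errors of all 4 groups, and its median standard error over genes was 0.259 on the log2 scale, against 0.184 for the SHU9119 difference in sham mice. The same model called 19 genes (0.114%) for SHU9119 in sham mice, 16 higher and 3 lower, and 1 gene (0.00599%), higher, for SHU9119 after sDVX. A gene called in one surgery and not in the other is not thereby shown to differ between them. The interaction's own error is given below as ± SE for the main genes. Further genes and list medians are printed without it.

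Library totals were 20425295 to 30889052 counts. Transcripts of neighbouring tissue differed between libraries of 1 group: summed epididymis markers ran from 4.08 to 10390 CPM (counts scaled to a common library size) and reached 9737 in VX_Veh4 and 10390 in VX_SHU4, and testis and sperm markers reached 2668 in Sham_Veh4 and 1303 in Sham_SHU3. The 6 libraries in which either sum reached 500 CPM were Sham_Veh3, Sham_Veh4, Sham_SHU3, Sham_SHU4, VX_Veh4 and VX_SHU4. Ciliated epithelium markers were not part of that choice. Their sum was 7.56 to 387 CPM in Sham_Veh, 10.5 to 182 in Sham_SHU, 19.9 to 1031 in VX_Veh (highest in VX_Veh1) and 6.53 to 175 in VX_SHU, with lower group means under SHU9119 in both surgeries (60.5 against 281 after sham surgery and 56.6 against 394 after sDVX). The summed level of 10 adipocyte markers was 25000 to 43890 CPM in Sham_Veh, 26460 to 33540 in Sham_SHU, 14280 to 33370 in VX_Veh and 23210 to 33830 in VX_SHU, so the libraries carry the defining transcripts of fat. In whole tissue, fewer cells of a type and less RNA per cell cannot be told apart.

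**Figure D1:**
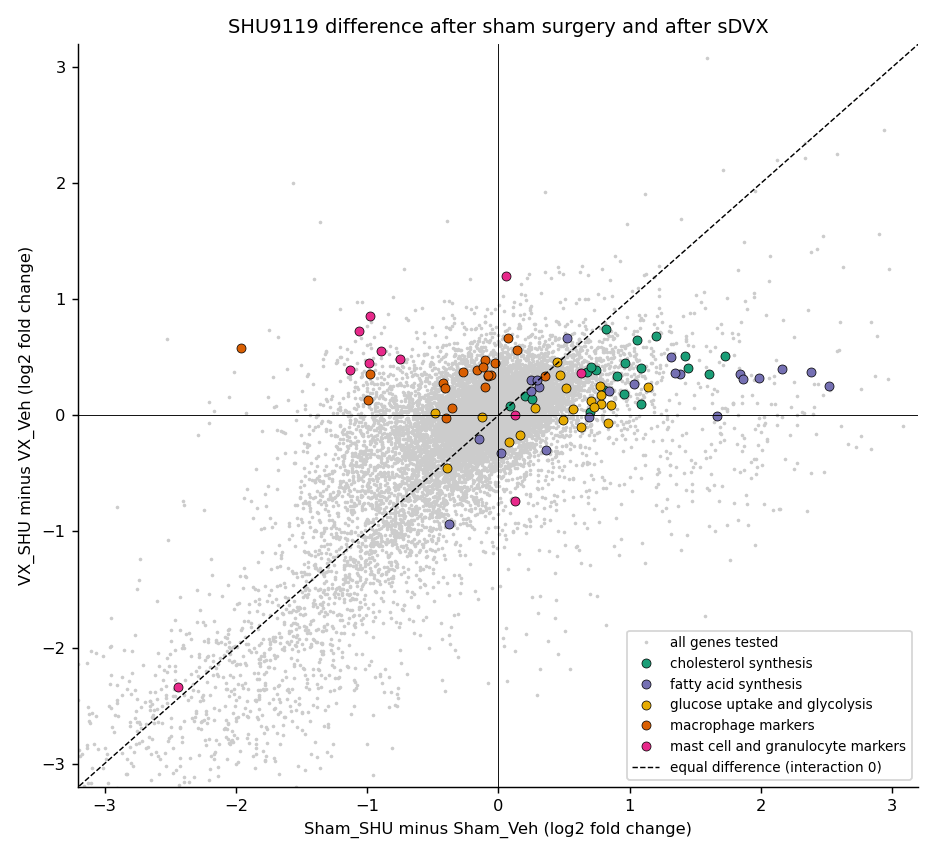
Each point is 1 tested gene, with its SHU9119 difference after sham surgery on the x axis and after sDVX on the y axis (log2 fold change), and 5 gene lists in colour; the dashed line marks an interaction of 0, and 117 genes lie beyond the axes. Cholesterol synthesis genes and 19 of 22 fatty acid synthesis genes sit to the right of the dashed line, with larger values on the x axis than on the y axis, and most macrophage markers sit to its left.

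The genes at an unadjusted p under 0.05 are described here by their 2 SHU9119 differences. The interaction that chose them is made of these differences. Their signs and sizes are therefore partly fixed by the choice and are a description, not a test. Their number, 794, was below the 834 that the threshold gives when nothing differs. Of the 239 negative genes, 236 stood higher with SHU9119 in sham mice, 103 of them higher after sDVX too and 133 lower. The sham difference was the larger one in 85.4% of the 239, with a median size of 0.40 against 0.13 after sDVX on the log2 scale. Of the 555 positive genes, 475 stood lower with SHU9119 in sham mice and higher after sDVX, with median sizes of 0.32 and 0.28, and the sham difference was the larger in 56.2%. Over all tested genes it was the larger in 58.9%. Leaving out 1 library moved the 794 to between 498 (without VX_SHU1) and 1390 (without Sham_SHU3), with 1236 without VX_SHU3. The negative count of 239 moved most, to 96 without Sham_SHU2, 118 without VX_SHU1, 128 without VX_SHU2, 129 without Sham_SHU1, 361 without Sham_Veh4, 362 without VX_Veh1, 457 without VX_SHU4, 559 without VX_SHU3 and 588 without Sham_SHU3.

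Read without a model, few genes had opposite shifts. In 4 genes (0.024%) all Sham_SHU libraries lay below all Sham_Veh while all VX_SHU lay above all VX_Veh: Ifi204, Arhgap15 and the gene models F630028O10Rik and 4930599N23Rik. The reverse crossing occurred in 0 genes (0%). So small a count of crossings can arise by chance among the genes tested, and no test was made of it. By comparison, 103 genes (0.617%) stood higher with SHU9119 without overlap in both surgeries and 50 (0.3%) stood lower. A single group stood clear of the other 12 libraries most often in Sham_SHU, which lay below all others in 116 genes (0.695%) and above in 57 (0.342%). VX_Veh lay below all others in 49 genes (0.294%) and above in 12 (0.0719%). Sham_Veh lay below in 13 (0.0779%) and above in 12 (0.0719%), and VX_SHU lay below in 10 (0.0599%) and above in 8 (0.048%). Chance can give counts as small as these last ones too.

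Genes of lipid synthesis lay on the negative side, and 0 of their members passed. All 20 of 20 cholesterol synthesis genes had an interaction below 0, and so had 19 of 22 fatty acid synthesis genes, where 51.9% of all tested genes were below 0. The median interaction was −0.54 for cholesterol synthesis and −0.74 for fatty acid synthesis, beside −0.01 over all genes. The cholesterol genes had a median SHU9119 difference of 0.93 in sham mice and 0.38 after sDVX, above 0 in 20 of 20 in each. The fatty acid genes had medians of 0.94 and 0.29. Both lists were chosen with the strong SHU9119 difference in sham mice known, and that difference is one arm of the interaction.

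Scd2, a stearoyl-CoA desaturase, had the smallest p on the negative side. It stood at 339, 293, 242 and 216 CPM in Sham_Veh, at 1268, 1258, 622 and 1172 in Sham_SHU, at 540.4, 487, 377 and 762 in VX_Veh, and at 542, 559, 775 and 827 in VX_SHU. All Sham_Veh libraries lay below the other 12, and the VX_Veh and VX_SHU libraries overlapped. Scd2 rose with SHU9119 in sham mice by 1.99 ± 0.266 (SE, log2; edgeR adjusted p = 0.0271), and after sDVX its difference was 0.32 ± 0.257 (adjusted p = 0.609). The interaction was −1.67 ± 0.365 (unadjusted p = 0.000452, edgeR adjusted p = 0.957), and the DESeq2 Wald test called it (adjusted p = 0.0119). Seen along the other axis, sDVX went with 0.99 more Scd2 under vehicle and −0.68 under SHU9119, neither of which passed. Scd2 lies on chromosome 19 from 44293676 to 44306864 (mm10, GENCODE M21), beside its close copy Scd1, and the counting could split reads between them.

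Acly makes cytosolic acetyl-CoA from citrate and Fasn builds palmitate from it. Acly stood at 480.4, 391, 1055 and 491 CPM in Sham_Veh, at 3903, 4851, 1285 and 2536 in Sham_SHU, at 697, 2210, 2402 and 1958 in VX_Veh, and at 1533, 1417, 4482 and 2001 in VX_SHU. The 2 sham groups did not overlap, while the 2 sDVX groups did. The interaction of Acly was −2.00 ± 0.719 (SE; edgeR adjusted p = 0.961), and limma-voom with sample weights called it (−2.97, adjusted p = 0.0413). Fasn averaged 4874 ± 2809 CPM (SD, n = 4) in Sham_Veh, 17440 ± 6912 in Sham_SHU, 10040 ± 4391 in VX_Veh and 12860 ± 7414 in VX_SHU, with an interaction of −1.48 ± 0.690 (edgeR adjusted p = 0.999). In Fasn and Acly the lowest Sham_SHU library was Sham_SHU3 and the highest VX_SHU library was VX_SHU3. Scd1, Acss2, Me1 and Elovl6, further enzymes of this route, had interactions of −0.98, −1.76, −1.55 and −2.26. Srebf1, the gene of the factor that drives lipogenic genes, had −0.04 ± 0.344, and its sign turned in 7 of the 16 fits without 1 library.

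Among sterol genes, Insig1, whose protein retains the SREBP complex in the endoplasmic reticulum when sterol is high, stood at 200.1, 162, 205 and 192 CPM in Sham_Veh and at 667, 846, 360.0 and 838 in Sham_SHU. It stood at 129, 281, 258 and 266 in VX_Veh and at 301, 349.7, 520.0 and 281 in VX_SHU. The sham groups did not overlap, and after sDVX the highest VX_Veh and the lowest VX_SHU library stood at the same level. The interaction was −1.20 ± 0.407 (SE; edgeR adjusted p = 0.957). Lss, which closes squalene epoxide into lanosterol, had −1.22 ± 0.401, and Dhcr7, which makes cholesterol from 7-dehydrocholesterol, had −0.91 ± 0.278.

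The cholesterol list was below 0 in 18 to 20 of 20 members in every fit without 1 library, with medians from −0.69 to −0.42. The fatty acid list had 17 to 21 of 22 below 0 and medians from −1.09 to −0.64. Without the 6 libraries high in epididymis or testis markers its median was −1.15, and with limma-voom it was −1.29.

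Because these genes stood higher together with SHU9119 in sham mice, the sequences before the transcription starts of 3 of them are shown, from RefSeq (GRCm38.p6). The capitals mark CCAAT on either strand, the box bound by the factor NF-Y, which acts together with SREBP proteins on many sterol genes. Each run holds the 250 bases before the start, 5′ to 3′ on the gene's strand. Insig1 is at chr5:28071162-28071411 (plus strand), Fasn at chr11:120824548-120824797 (minus strand) and Lss at chr10:76531355-76531604 (plus strand).
Insig1: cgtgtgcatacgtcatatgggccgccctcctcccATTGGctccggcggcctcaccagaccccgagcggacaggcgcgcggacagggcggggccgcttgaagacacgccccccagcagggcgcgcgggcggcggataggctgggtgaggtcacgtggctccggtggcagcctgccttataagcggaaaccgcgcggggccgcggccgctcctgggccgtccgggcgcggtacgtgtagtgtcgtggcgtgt
Fasn: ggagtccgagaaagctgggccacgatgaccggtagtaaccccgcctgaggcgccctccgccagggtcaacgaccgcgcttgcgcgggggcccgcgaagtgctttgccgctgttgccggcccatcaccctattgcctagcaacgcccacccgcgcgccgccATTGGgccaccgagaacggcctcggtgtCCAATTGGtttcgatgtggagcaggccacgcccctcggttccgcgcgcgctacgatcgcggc
Lss: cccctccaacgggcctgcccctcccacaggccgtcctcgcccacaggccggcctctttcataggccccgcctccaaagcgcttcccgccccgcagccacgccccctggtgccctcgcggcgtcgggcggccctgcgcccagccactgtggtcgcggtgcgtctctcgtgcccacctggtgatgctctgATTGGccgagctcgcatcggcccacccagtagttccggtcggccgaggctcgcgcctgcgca

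Insig1 holds 1 match at −216 from the start, Lss holds 1 at −62, and Fasn holds 3, at −90, −62 and −59, of which the last 2 overlap on opposite strands. Over windows of 300 bases (250 before and 50 after the start), 33 of the 42 genes of the cholesterol, fatty acid and sterol sensing lists with a RefSeq promoter entry held CCAAT (78.6%; 56 genes of these lists were tested). The share was 42% over 13116 tested genes with an entry and 41.1% over all 27025 genes with one. Cholesterol synthesis held it in 14 of 15 genes and glycolysis in 10 of 19. TCACNCCAC, a sterol response element, was found in 2 of the 42 (4.76%) against 1.47% of tested genes. A match is a description of the letters and not a bound site. Scd2 had no RefSeq promoter entry, so its promoter was not searched.

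**Figure D2:**
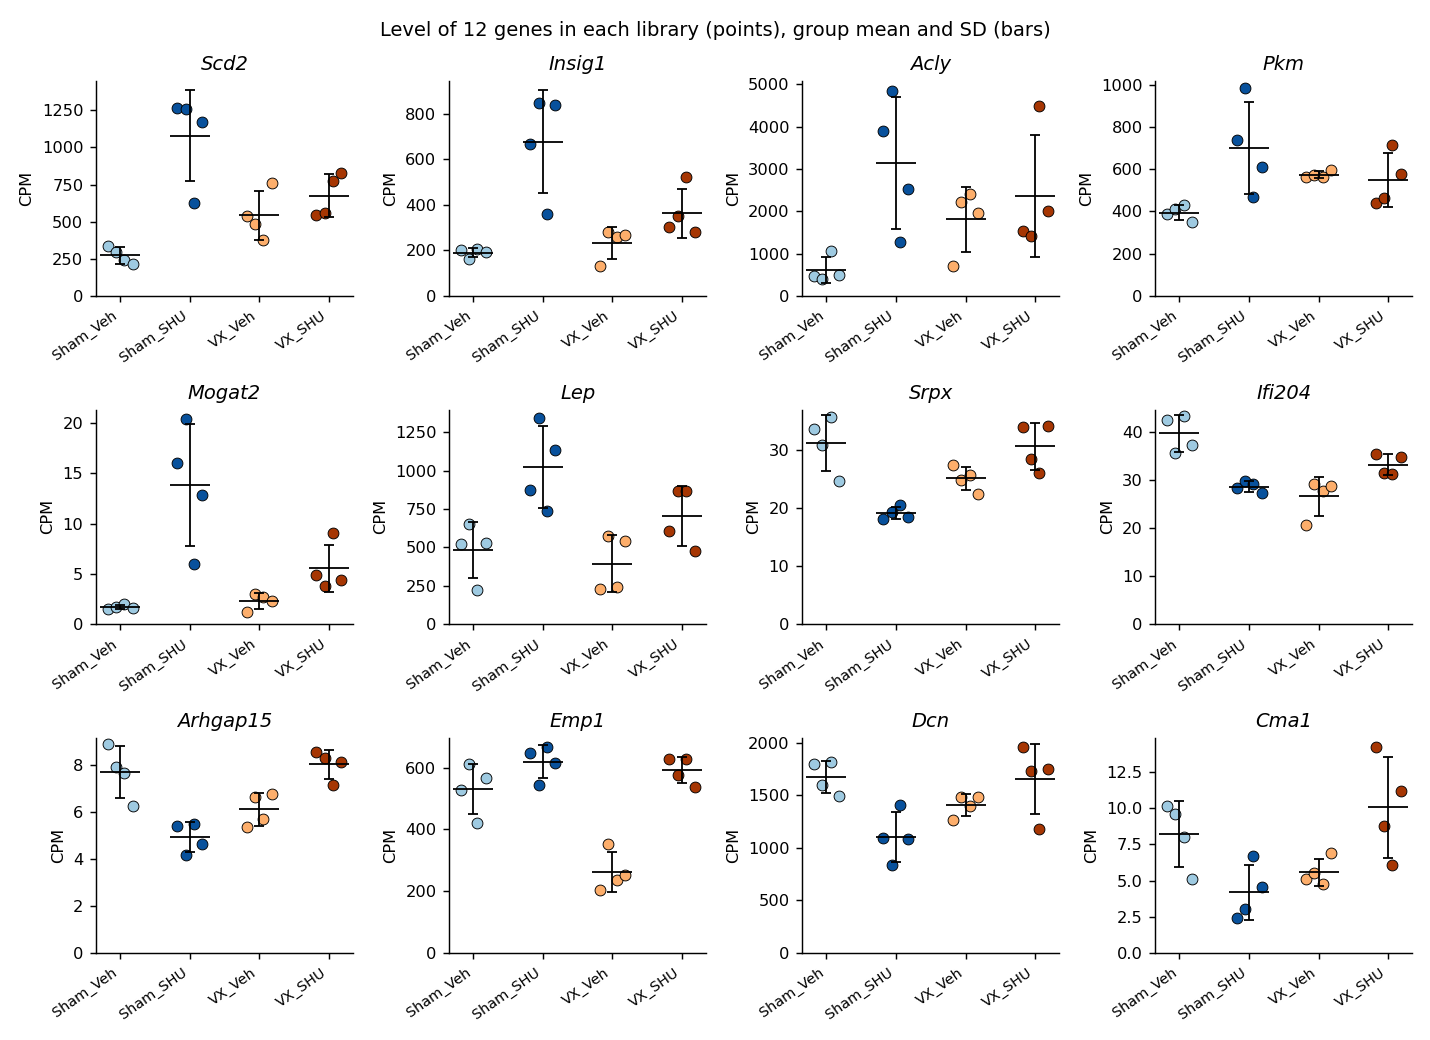
Level in each library (CPM) of 12 genes, 1 panel a gene, with points for libraries and bars for the group mean and SD (n = 4). Scd2, Insig1, Acly, Pkm and Mogat2 have their highest group mean in Sham_SHU. VX_Veh and VX_SHU overlap in Scd2, Acly and Pkm but not in Mogat2, and Emp1 stands lowest in VX_Veh and Srpx lowest in Sham_SHU.

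Genes of glucose use lay on the same side of 0. Of 20 glycolysis and glucose uptake genes tested, 17 had an interaction below 0, with a median of −0.51, medians of 0.54 in sham mice and 0.07 after sDVX, and 0 called. Pkm, pyruvate kinase, stood at 387, 411, 429 and 348 CPM in Sham_Veh, at 738, 985, 470.1 and 610.1 in Sham_SHU, at 561, 571, 561 and 596 in VX_Veh, and at 437, 462, 715 and 578 in VX_SHU. The Sham_Veh libraries lay below all other libraries, and VX_Veh stood in the range of Sham_SHU. The interaction of Pkm was −0.89 ± 0.276 (SE; edgeR adjusted p = 0.957). Tpi1 and Gapdh, enzymes of the triose steps, had −0.58 and −0.77, and Mpc1, a subunit of the mitochondrial pyruvate carrier, had −0.90. Slc2a4, the insulin-sensitive glucose transporter, had −0.28 and Hk2, a hexokinase, −0.12. In the pentose phosphate pathway, which makes NADPH for lipid synthesis, 6 of 8 genes were below 0 (median −0.37), led by Tkt with −1.15 ± 0.609 and Pgd with −0.82 ± 0.376. Without the 6 libraries high in epididymis or testis markers, that median was −0.62.

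Mitochondrial genes shared the sign at a smaller size. The interaction was below 0 in 27 of 28 oxidative phosphorylation subunits (median −0.16) and in 19 of 21 fatty acid oxidation genes (median −0.15). For oxidative phosphorylation the median ran from −0.27 without Sham_Veh3 to −0.09 without Sham_SHU2, and for fatty acid oxidation from −0.29 without Sham_Veh3 to −0.07 without VX_Veh3. With limma-voom these medians were larger in size, at −0.36 for oxidative phosphorylation and −0.42 for fatty acid oxidation. Cycs, cytochrome c, had −0.54 ± 0.257. In the thermogenic list, 9 of 12 genes were below 0, with a median of −0.39 and members from −1.67 to 1.05. The list's median SHU9119 difference was −0.004 in sham mice, with 6 genes above 0, and −0.21 after sDVX. The smallest p belonged to Cox7a1, a muscle and brown fat isoform of a cytochrome oxidase subunit (−1.44 ± 0.523). Dio2, which activates thyroid hormone, had −1.54 ± 0.618, and Ppargc1a had −0.25. Cox7a1 and Dio2 averaged only 3.48 and 1.26 CPM, and their groups overlapped in both surgeries.

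Among the other leading negative genes, Mogat2, which acylates monoacylglycerol, stood at 1.56 to 2.02 CPM in Sham_Veh, 6.00 to 20.4 in Sham_SHU, 1.22 to 3.02 in VX_Veh and 3.85 to 9.05 in VX_SHU. It was without overlap in both surgeries, by 2.98 ± 0.395 and 1.26 ± 0.373 (SE, log2), with an interaction of −1.72 ± 0.524 (edgeR adjusted p = 0.957). Lctl, a klotho-family protein, stood at 2.56 to 5.82 CPM in Sham_Veh and 12.4 to 43.8 in Sham_SHU, above all other libraries, which reached 11.7 in VX_SHU. Its interaction was −2.03 ± 0.649 (adjusted p = 0.957). Exoc4, a subunit of the exocyst complex that tethers secretory vesicles, stood at 37.4 to 41.4 CPM in Sham_SHU and at 24.4 to 36.3 in the other 12 libraries, with an interaction of −0.57 ± 0.159. The other leading genes of this direction were Bpnt1, Gcsh, Dhcr7, Lactb2, Aga, Tmx2 and Parm1, with interactions from −1.27 (Parm1) to −0.43 (Tmx2).

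**Figure D3:**
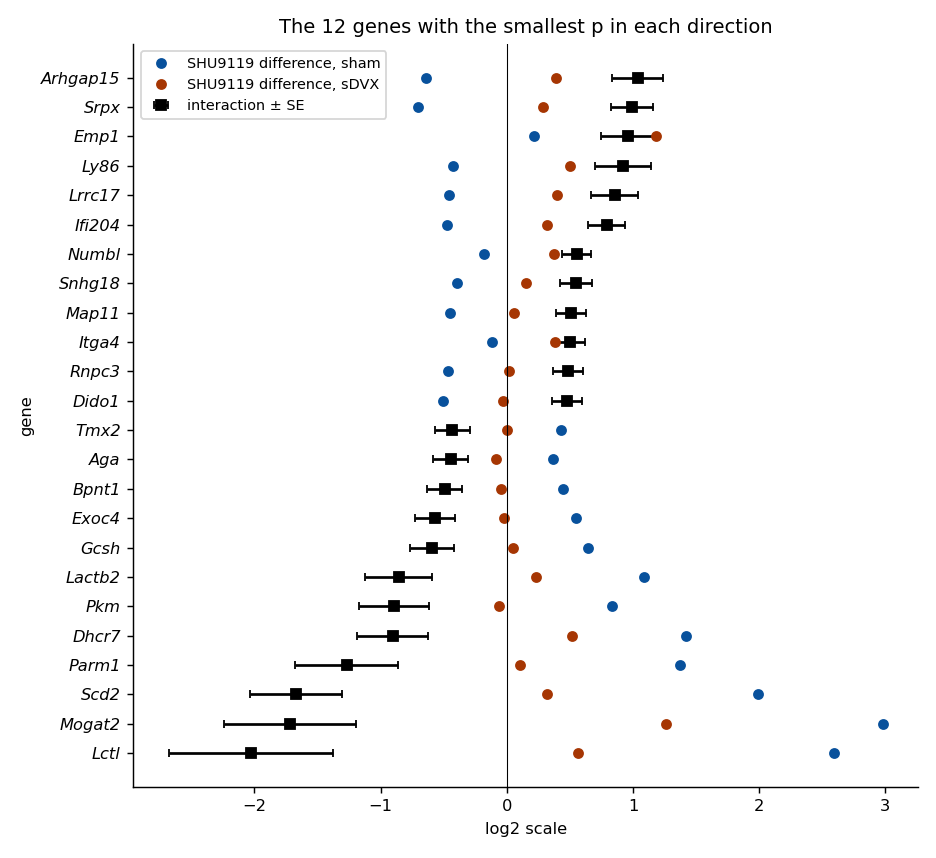
For the 12 genes with the smallest interaction p in each direction, black squares give the interaction with its SE, and coloured points the SHU9119 difference in sham mice and after sDVX (log2 scale). In the negative genes the sham points lie right of the sDVX points, which reach furthest right in Mogat2 (1.26). All positive genes but Emp1 and Dido1 have their points on opposite sides of 0. So have Exoc4, Bpnt1, Pkm, Aga and Tmx2 among the negative genes, with sDVX points close to 0.

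The positive side was led by genes low in Sham_SHU. Srpx, a secreted protein with sushi repeats, had the smallest p of all genes. It stood at 33.6, 30.8, 35.7 and 24.6 CPM in Sham_Veh, at 18.1, 19.2, 20.6 and 18.5 in Sham_SHU, at 27.3, 24.9, 25.7 and 22.4 in VX_Veh, and at 33.9, 28.3, 26.0 and 34.1 in VX_SHU. The Sham_SHU libraries lay below all other libraries, and the other 3 groups overlapped one another. Srpx fell by 0.71 in sham mice (SE 0.118, edgeR adjusted p = 0.0421), its difference after sDVX was 0.29 ± 0.117 (adjusted p = 0.427), and the interaction was 0.99 ± 0.166 (unadjusted p = 3.67e-05, adjusted p = 0.612). It was called by DESeq2 (adjusted p = 7.62e-05), by limma-voom (0.0142) and, alone among all genes and all edgeR fits without 1 library, without Sham_Veh4 (0.0350). Srpx is on chromosome X from 10037977 to 10117640.

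Map11, a microtubule-associated protein, shared this shape, with 15.1 to 19.8 CPM in Sham_SHU and 20.8 to 25.7 in the other libraries and an interaction of 0.51 ± 0.118. Dido1, Rnpc3, Lrrc17 and Snhg18 had 0.48, 0.48, 0.85 and 0.55. The matrix genes Dcn, a small proteoglycan that binds collagen, and Mmp2, a gelatinase, had their lowest group mean in Sham_SHU but overlapped other groups there. Dcn stood at 1797, 1598, 1815 and 1494 CPM in Sham_Veh, at 1092, 836, 1408 and 1083 in Sham_SHU, at 1266, 1488, 1401 and 1487 in VX_Veh, and at 1962, 1733, 1182 and 1750 in VX_SHU. Its interaction was 0.83 ± 0.233 and that of Mmp2 0.84 ± 0.218 (SE; edgeR adjusted p = 0.957 for both). Timp2 and Mmp14 had 0.76 and 0.60. These genes did not stand for their list: of 30 extracellular matrix genes, 16 were above 0, with a median of 0.04 (−0.17 with limma-voom), and the collagens Col1a1, Col3a1 and Col6a3 had 0.15, 0.13 and −0.11.

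Ifi204 and Arhgap15 crossed. Ifi204, an interferon-inducible gene of the p200 family, stood at 42.7, 35.7, 43.5 and 37.4 CPM in Sham_Veh and at 28.4, 29.8, 29.4 and 27.4 in Sham_SHU. It stood at 20.7, 29.3, 27.8 and 28.8 in VX_Veh and at 35.4, 31.6, 31.3 and 34.8 in VX_SHU. The interaction of Ifi204 was 0.79 ± 0.146 (SE; edgeR adjusted p = 0.786; DESeq2 adjusted p = 0.00158; limma-voom 0.0351). Members of its family are near-identical in stretches, so counts may be shared among them. Arhgap15, a Rac GTPase-activating protein of blood cells, stood at 6.25 to 8.93 CPM in Sham_Veh, 4.16 to 5.52 in Sham_SHU, 5.35 to 6.77 in VX_Veh and 7.17 to 8.55 in VX_SHU. Its interaction was 1.04 ± 0.202 (edgeR adjusted p = 0.891; DESeq2 adjusted p = 0.00158), and other annotated transcripts overlap its locus. Along the other axis, the sDVX difference was −0.58 under vehicle and 0.21 under SHU9119 in Ifi204, and −0.33 and 0.70 in Arhgap15, with 0 of these 4 past the threshold.

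In another form, VX_Veh stood low and the other groups alike. Emp1, a membrane protein of the peripheral myelin protein family, stood at 528, 612, 421 and 566 CPM in Sham_Veh, at 648, 545, 666 and 616 in Sham_SHU, at 203, 352, 236 and 252 in VX_Veh, and at 627, 576, 627 and 539 in VX_SHU. Its 4 VX_Veh libraries lay below all others. Emp1 rose with SHU9119 after sDVX by 1.18 ± 0.156 (SE; edgeR adjusted p = 0.0460) and its difference in sham mice was 0.22 ± 0.154 (adjusted p = 0.434), with an interaction of 0.96 ± 0.218 (adjusted p = 0.957; DESeq2 adjusted p = 0.0423). Itga4, the alpha chain of an integrin that leukocytes use to leave vessels, stood at 11.7 to 14.9 CPM in VX_Veh and 16.1 to 19.7 elsewhere, with an interaction of 0.50 ± 0.119. G0s2, an inhibitor of the lipase ATGL, stood at 67.3 to 126 CPM in VX_Veh and 129.6 to 225 elsewhere, with an interaction of 0.63 ± 0.275.

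In Mc1r and Numbl, VX_SHU stood high. All VX_SHU libraries lay above the others in 8 of 16682 tested genes (0.048%) and below them in 10 (0.0599%). Chance can give counts this small. Mc1r, a melanocortin receptor of pigment cells and leukocytes, stood at 2.97, 3.45, 4.06 and 2.67 CPM in VX_SHU and at 0.801 to 1.76 in the other 12 libraries. The groups did not overlap, but at this level a library held few reads. Its interaction was 1.39 ± 0.378 (SE; edgeR adjusted p = 0.957). Numbl, an endocytic adaptor related to Numb, stood at 23.7 to 27.4 CPM in VX_SHU and 17.7 to 23.4 elsewhere, with an interaction of 0.55 ± 0.115 (adjusted p = 0.957; DESeq2 adjusted p = 0.00619).

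Outside the lists of neighbouring tissue, immune cell markers formed the main group above 0. Testis and sperm markers were above 0 in 12 of 12 tested genes (median 1.015, but −1.82 without Sham_Veh4). Epididymis markers had a median of −1.99 over 6 tested genes, which ran from −8.55 to 3.81 without single libraries. Of 19 macrophage markers, 18 had an interaction above 0 (median 0.54), with a median SHU9119 difference of −0.12 in sham mice and 0.35 after sDVX, and 0 were called. Mrc1, the mannose receptor of resident macrophages, stood at 146, 118, 109.7 and 122 CPM in Sham_Veh, at 108, 135, 127 and 118 in Sham_SHU, at 86.0, 110.5, 87.0 and 104 in VX_Veh, and at 145, 111, 121 and 152 in VX_SHU. Its VX_SHU libraries lay above VX_Veh, and its sham groups overlapped (interaction 0.47 ± 0.174 SE, edgeR adjusted p = 0.995). Csf1r, the receptor for the macrophage growth factor, and Ccr2, which guides monocytes into tissue, had 0.56 and 0.59. Ly86, a partner of a Toll-like receptor on myeloid and B cells, had 0.92 ± 0.222. The summed macrophage level was 931 to 1094 CPM in Sham_Veh, 821 to 1052 in Sham_SHU, 688 to 1009 in VX_Veh and 876 to 1397 in VX_SHU, overlapping in all groups. The part of cell number in the interaction of these genes was not tested.

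The mast cell and granulocyte list had the largest median interaction of the marker lists with over 10 tested members. Cma1, a chymase, stood at 10.2, 9.61, 8.01 and 5.10 CPM in Sham_Veh, at 2.42, 3.05, 6.69 and 4.54 in Sham_SHU, at 5.13, 5.52, 4.76 and 6.88 in VX_Veh, and at 14.3, 8.76, 6.06 and 11.2 in VX_SHU. The groups overlapped in both surgeries, through Sham_SHU3 and VX_SHU3 among others. Its interaction was 1.83 ± 0.468, that of the related Mcpt4 1.79 ± 0.526, of Cpa3 1.23 and of Tpsb2 1.45 (SE; edgeR adjusted p = 0.957 for each). Cma1 and Mcpt4 are neighbours of 1 protease family, so some reads may be shared. The neutrophil genes S100a8 and S100a9 in the same list had −0.26 and −0.13. Of the list's 11 tested genes 8 were above 0, with a median of 1.23, and 2.07 without the 6 libraries high in epididymis or testis markers. The list's members had a median SHU9119 difference of −0.89 in sham mice and 0.45 after sDVX. Its summed level was 35.2 to 88.7 CPM in Sham_Veh, 23.1 to 45.2 in Sham_SHU, 43.5 to 128 in VX_Veh and 36.2 to 74.3 in VX_SHU. Unlike the median of the members, the mean of this sum was lower with SHU9119 after sDVX too (56.5 against 72.45 CPM). After sham surgery it was 32.3 against 63.8 CPM. Lymphocyte markers were above 0 in 11 of 13 (median 0.56, or 0.36 without Sham_Veh3).

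**Figure D4:**
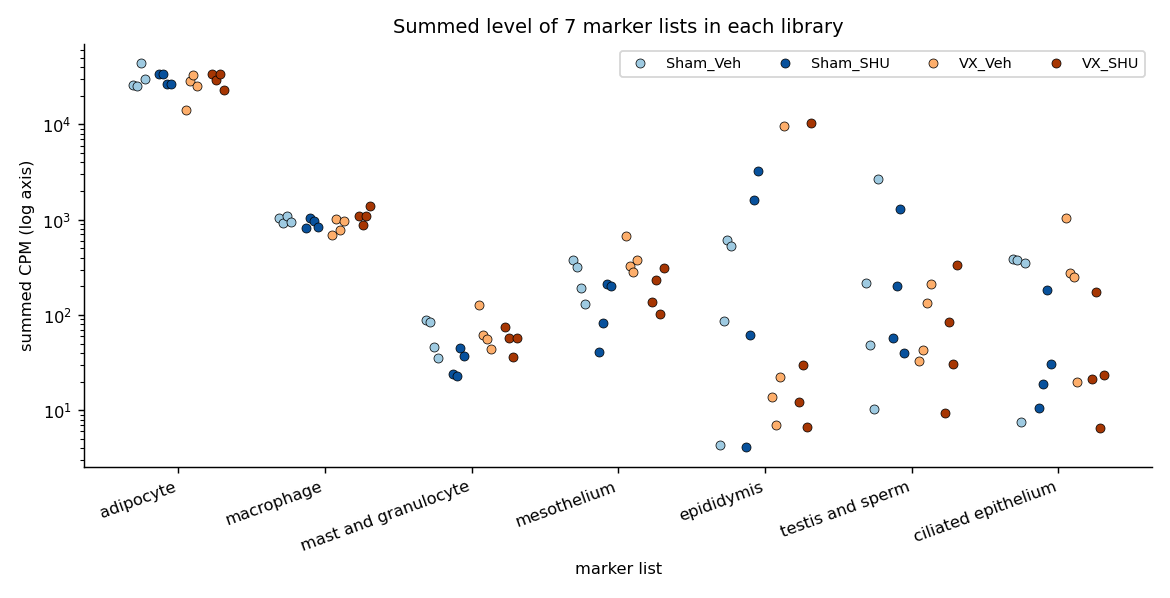
Summed level of 7 marker lists in each library (CPM, log axis), with libraries coloured by group. Macrophage sums overlap across groups, and epididymis sums run from 6.62 to 10390 CPM within VX_SHU alone.

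Several lists central to fat had a median SHU9119 difference of like size in both surgeries, which does not show that the differences are equal. All 9 depot expansion genes were higher with SHU9119 in each surgery, with medians of 0.67 and 0.65 and a median interaction of 0.09, which ran from −0.14 without VX_SHU3 to 0.21 without Sham_SHU1. The interactions of the members ran from −0.92 to 0.31. The lowest was that of Bmp3 (−0.92 ± 0.591 SE), with differences of 1.95 in sham mice and 1.02 after sDVX. Lep, which encodes leptin, stood at 522, 653, 225 and 529 CPM in Sham_Veh, at 876, 1341, 739.6 and 1131 in Sham_SHU, at 227, 572, 244 and 539 in VX_Veh, and at 607, 869.5, 867 and 479 in VX_SHU. Its difference was 1.08 in sham mice and 0.83 after sDVX, with an interaction of −0.25 ± 0.520 (SE; edgeR adjusted p = 0.999), and 0.27 without the 6 libraries high in epididymis or testis markers. Adipoq, adiponectin, had 0.25 ± 0.350 and Pparg, the master regulator of fat cell formation, 0.00 ± 0.333, and both were below 0 with limma-voom (−0.13 and −0.43). Adipocyte transcription factors (median 0.07), insulin signalling (0.03) and branched-chain amino acid genes (0.05) lay near the −0.01 of all genes, although the last had −0.29 with limma-voom and −0.22 without the 6 libraries high in epididymis or testis markers. Cfd, which encodes the adipokine adipsin, departed from these with 1.12 ± 0.441 (edgeR adjusted p = 0.999): its Sham_SHU libraries, at 3823 to 6763 CPM, lay below the 7087 to 16340 of Sham_Veh.

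**Figure D5:**
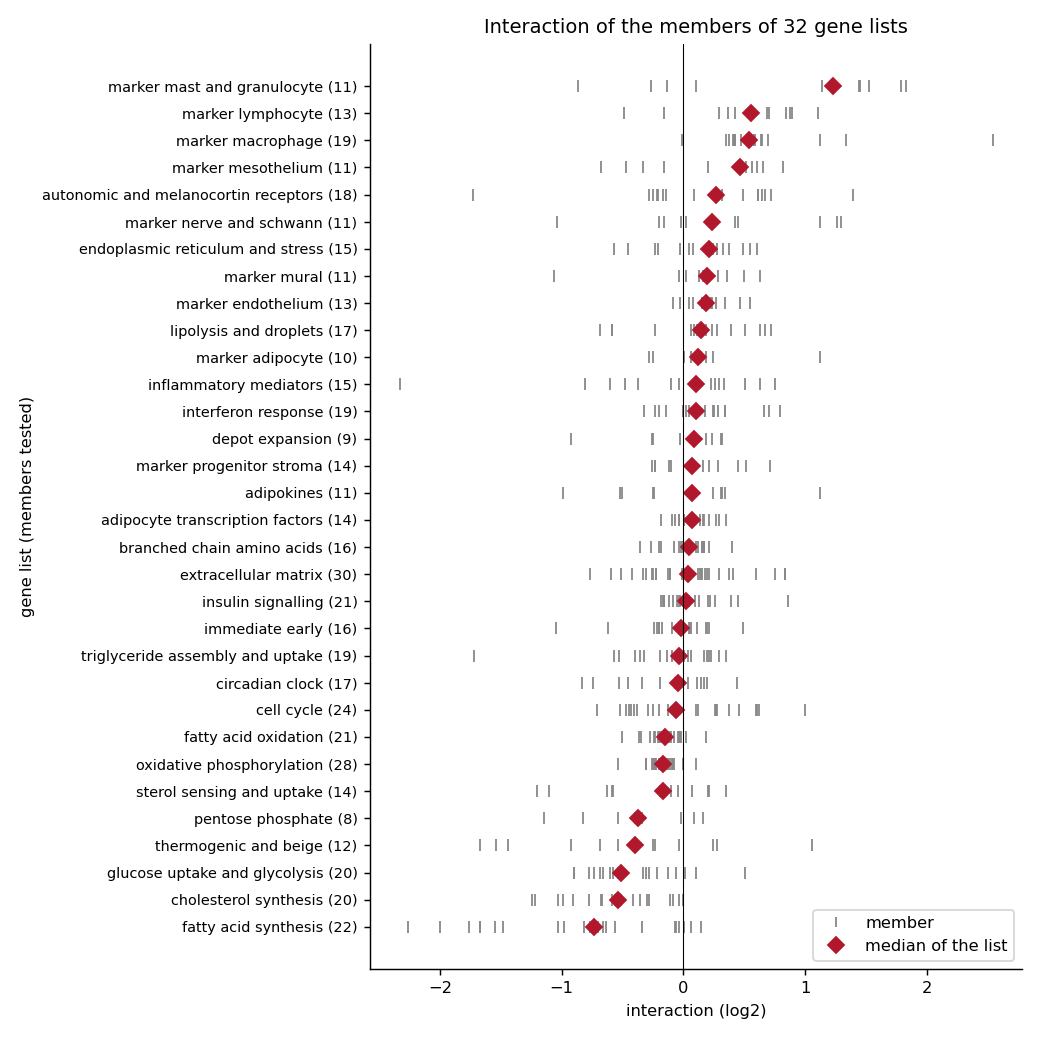
Interaction (log2) of each tested member of 32 gene lists, as ticks, with the list median as a diamond and the number of tested members in brackets. Among the lists drawn, fatty acid synthesis (−0.74), cholesterol synthesis (−0.54) and glycolysis (−0.51) lie lowest. Mast and granulocyte (1.23), lymphocyte (0.56) and macrophage markers (0.54) lie highest. The lists of neighbouring tissue are not drawn: epididymis (median −1.99), testis and sperm (1.015) and ciliated epithelium (−0.53).

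The 19 genes called for SHU9119 in sham mice were also read in the sDVX libraries, which shared the filter, scaling and error estimate of the fit that chose them. All 16 that rose in sham mice were above 0 after sDVX, and 2 of the 3 that fell were below 0. Of all tested genes, 71.3% had the same sign in both surgeries. After sDVX, 13 of the 19 had an unadjusted p under 0.05 in the edgeR test, beside 1942 of all 16682 tested genes. Of the 19, 0 passed adjustment. The 16 genes had a median of 1.30 in sham mice and 0.52 after sDVX, and the 3 had −0.71 and −0.03. Since the sham comparison chose these genes, the medians are a description and not a test of a smaller difference. Fmr1, an RNA-binding protein, and Tuba1a, a tubulin, were without overlap in both surgeries, with differences of 1.19 and 0.79 (Fmr1) and 1.95 and 1.05 (Tuba1a) and interactions of −0.40 ± 0.242 and −0.89 ± 0.439. Cbx7, a Polycomb protein, was lower without overlap in both (−0.84 and −0.49), with an interaction of 0.35 ± 0.201.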

How the data were processed

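RNA-seq of polyadenylated gonadal fat RNA gave 16 libraries, and the labels place 4 in every group. The authors deposited 1 table of read counts per gene, not normalized. The submitters' processing notes name bcl2fastq, TopHat, edgeR and the mm10 build; how reads were counted, and whether by strand, is not given in the sources used, so reads of overlapping genes cannot be told apart. Of 24454 Entrez gene IDs, 24374 matched a symbol, and the other 80 held 0.557% to 1.24% of a library's counts. Coordinates of genes are those of mm10 in GENCODE M21.

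The counts were analysed with edgeR 4.0.16 in R 4.3.3: genes were filtered with filterByExpr (16682 kept), scaled by TMM, and fitted with the quasi-likelihood test over all 16 libraries (12 residual degrees of freedom), with p-values adjusted over all tested genes by Benjamini-Hochberg. Levels are TMM-scaled CPM. DESeq2 1.42.0, limma 3.58.1 (voom with sample weights) and sva 3.50.0 served as alternatives, beside other filters and scalings, covariates for neighbouring tissue, a replicate block, and leaving out each library. The test was checked on simulated counts. Replicates of a group differed by more than sampling noise.

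Genes were named by rule: the 12 with the smallest interaction p in each direction among genes with a mean of at least 5 CPM and no unnamed models; and, where levels under 5 CPM also occur (Mc1r, Dio2, Cox7a1), the 2 members of each list with the smallest p, genes past the threshold for SHU9119 in either surgery, and Lep, Adipoq, Pparg, Fasn, Scd1, Scd2, Acly, Srebf1, Insig1 and Emp1; not all are printed. Further list members and the pair of Rik gene models were picked after their values were seen. The comparison and the gene lists were chosen with earlier results of these data known.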

Additional observations from a re-analysis of the deposited data

Results flagged for a closer look

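A library was marked where it stood far from the other 3 of its group, by Dixon's test of its gap to the nearest library against the group's range. This occurred in 34 of 280 groups of values, 23 of single genes and 11 of marker sums; chance marks about 5% of groups. Sham_Veh3 was the library apart for Scd1 (35590 CPM), Acly (1055), Srebf1 (592), Tkt (1317), Dido1 (189), Aga (29.2), Cd14 (49.3) and Tuba1a (112.5). VX_SHU3 was apart for Fasn (23850 CPM), Tkt (2864), Pgk1 (256), Bpnt1 (77.9), Lactb2 (83.6), Cd14 (17.4) and Bmp3 (33.5). Sham_SHU3 was apart for Scd2 (622 CPM), Vldlr (92.8), Dido1 (135), Gcsh (86.1) and Fmr1 (349.4). VX_Veh1 was apart for Insig1 (129 CPM) and Ifi204 (20.7), and VX_Veh2 for Mcpt4 (7.43).

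Among summed markers, lymphocytes stood apart in Sham_Veh3 (37.6 CPM) and VX_SHU2 (35.8), endothelium in VX_Veh1 (1155), and nerve and Schwann cells in VX_SHU4 (135). Epididymis markers stood apart in VX_Veh4 (9737 CPM) and VX_SHU4 (10390), testis and sperm markers in Sham_Veh4 (2668) and Sham_SHU3 (1303), and ciliated epithelium markers in Sham_Veh3 (7.56), Sham_SHU3 (182) and VX_SHU2 (175). The part of these libraries in the interaction was not tested beyond the fits without them.

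Ifi204 and Arhgap15 lay lower with SHU9119 after sham surgery and higher after sDVX, without overlap of the compared groups. This crossing occurred in 4 tested genes (0.024%), a count that chance can give. The interactions of Ifi204 and Arhgap15, 0.79 and 1.04 on the log2 scale, did not pass the edgeR quasi-likelihood test (adjusted p = 0.786 and 0.891).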

How the results depend on the processing

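The count of 0 called genes became 8 with the DESeq2 Wald test, 13 with limma-voom with sample weights and 0 to 1 without single libraries; the 794 genes at an unadjusted p under 0.05 became 3280 with limma-voom and 498 to 1390 without single libraries. Of 1482 values for 57 named genes under 26 alternatives, 1443 kept direction and side of the threshold, 17 newly passed and 22 changed sign, in Lep, Adipoq, Pparg and Srebf1. Adipoq had −0.13 with limma-voom and −0.0359 without the 6 libraries high in epididymis or testis markers, where Lep had 0.27. Pparg had −0.43 with limma-voom, −0.0139 with 1 surrogate variable, −0.29 without those 6 libraries, −0.0331 with epididymis and testis covariates and −0.0461 with a ciliated epithelium covariate. Without single libraries, Pparg ran from −0.18 to 0.22 and Srebf1 from −0.28 to 0.17. The cause was not tested. With the replicate number as a block, 0 genes were called and 728 had an unadjusted p under 0.05 in the edgeR test. Over 24 same-numbered pairs the correlation of deviations ran from −0.689 to 0.676, with 13 over 0.1. Its mean was 0.0903, against −0.0186 for other pairs. Of 16 libraries, 5 correlated best with their own number. These values do not settle whether the numbers pair the samples. With 4 libraries a group, an interaction has a larger error than either SHU9119 difference, which limits what can be called.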

Other observations

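Mesothelial markers, which come from the lining of the depot, had a median interaction of 0.47 over 11 tested genes, 7 above 0, but the value ran from 0.18 without Sham_Veh3 to 0.85 without Sham_SHU3, and was 1.19 without the 6 libraries high in epididymis or testis markers. Their summed level was 130 to 376 CPM in Sham_Veh, 40.7 to 212 in Sham_SHU, 281 to 679 in VX_Veh and 101 to 315 in VX_SHU. Endothelial markers were above 0 in 11 of 13 (median 0.18), but the median was −0.00049 without VX_Veh1 and 0.33 without Sham_SHU1. Lipolysis and lipid droplet genes were above 0 in 13 of 17 (median 0.15, but −0.03 without Sham_Veh3 and −0.16 with limma-voom). Genes of the clock (median −0.04), immediate early genes (−0.02) and insulin signalling (0.03) lay near the −0.01 of all genes, and each of these 3 medians changed sign without some single library.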
